A study of Mus musculus with 4 samples.

Results

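Of the 17561 genes in the deposited count table, 10 are described here: S100a4, S100a6, S100a10 and S100a11 of the S100 family, the galectins Lgals1 and Lgals3, the annexins Anxa1 and Anxa2, the intermediate filament gene Vim, and the scaffold gene Ahnak. They were chosen by name, as genes of activated T cells, with earlier results of these data known. Each was followed across 8 clusters of CD8+ T cells and 4 libraries. The cells were sort purified from mouse BM 4 weeks after stem cell transplantation (SCT), and were sequenced for gene expression and the T cell receptor (TCR) with a 5′ droplet kit. Recipients on a C57Bl/6 background were WT or CRBN transgenic, the latter with a modified cereblon through which lenalidomide can act in mice, and were given BM and T cells of genetically matched donors. Which of the groups held which genotype is not given in the labels. According to the methods, the mice were female and bore Vk12653 myeloma. The 4 groups received TIGIT inhibition with vehicle, isotype control with lenalidomide, both agents, or isotype control with vehicle, with antibody from the day of SCT and lenalidomide or vehicle from day 14 until the harvest at day 28. Each group was 1 library of 5 pooled mice, and the pooling does not keep the mice apart. The tables number the libraries 1 to 4 without naming their treatment, so no value is assigned to a treatment, no groups are compared, and there are no replicates.

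S100 proteins are small calcium-binding proteins of the EF-hand type that pass calcium signals to other proteins. S100a10 is the exception that does not need calcium, and it forms a complex with annexin A2 beneath the plasma membrane, to which the very large protein AHNAK binds. Annexins attach to membrane phospholipids when calcium is present, galectins bind β-galactoside sugars inside and outside the cell, and vimentin builds intermediate filaments. In T cells, transcripts of these families are known to be low in naive cells and more abundant in effector and memory cells, where they are linked to motility, adhesion and homing to tissue.

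Positions are given in GRCm38 with GENCODE M21. S100a4 (chr3:90603771-90606045) and S100a6 (chr3:90612882-90624181) lie on the plus strand, 6.84 kb apart. S100a11 (chr3:93520488-93526287) and S100a10 (chr3:93555080-93564643) lie 28.8 kb from each other on the same chromosome. Lgals1 is at chr15:78926725-78930465, Lgals3 at chr14:47367751-47386160, Anxa2 at chr9:69453620-69491795 and Vim at chr2:13573927-13582826. Anxa1 (chr19:20373428-20390944, minus strand) and Ahnak (chr19:8989284-9076914) share chromosome 19. All 10 are protein coding genes. The annotation lists pseudogene copies of S100a11 (S100a11-ps) and of Lgals1 (Lgals1-ps1 and Lgals1-ps2). None of these has an entry in the count table, and how reads shared with a copy were counted is not given in the sources used here, so the levels of both genes are uncertain to that extent. S100a5, a family gene in the same cluster of S100 genes, had 0.198 UMIs per 1000000 over all cells.

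The start regions of S100a4, S100a6, S100a11, Lgals3 and Anxa2 are shown because these are the members that were at least 2-fold higher in effector and exhausted cells than in naive cells in every library, as described below. Each is the 250 bases before the RefSeq start (GRCm38.p6, plus strand, 5′ to 3′), at chr3:90603520-90603769, chr3:90612644-90612893, chr3:93520246-93520495, chr14:47373610-47373859 and chr9:69453433-69453682. RefSeq starts can lie inside the longer GENCODE span, as for Lgals3. Capitals mark matches on either strand to a TATA box, searched as TATAAA. They also mark the AP-1 motif, searched as TGANTCA. The third motif is the GC box, searched as GGGCGG, and no matches of different motifs overlap.

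S100a4: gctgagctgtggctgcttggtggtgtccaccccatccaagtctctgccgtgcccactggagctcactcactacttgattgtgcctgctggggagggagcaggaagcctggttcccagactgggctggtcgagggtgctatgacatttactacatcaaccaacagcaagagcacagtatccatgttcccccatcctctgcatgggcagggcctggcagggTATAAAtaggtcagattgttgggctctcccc
S100a6: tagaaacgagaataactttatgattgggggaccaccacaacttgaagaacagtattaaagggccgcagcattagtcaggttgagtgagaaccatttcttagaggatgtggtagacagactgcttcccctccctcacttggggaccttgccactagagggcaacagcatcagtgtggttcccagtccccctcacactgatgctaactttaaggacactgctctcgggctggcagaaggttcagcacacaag
S100a11: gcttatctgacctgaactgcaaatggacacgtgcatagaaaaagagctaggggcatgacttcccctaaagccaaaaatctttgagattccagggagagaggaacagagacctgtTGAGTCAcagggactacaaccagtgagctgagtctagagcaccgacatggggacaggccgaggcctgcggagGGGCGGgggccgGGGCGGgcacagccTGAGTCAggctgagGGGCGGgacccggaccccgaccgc
Lgals3: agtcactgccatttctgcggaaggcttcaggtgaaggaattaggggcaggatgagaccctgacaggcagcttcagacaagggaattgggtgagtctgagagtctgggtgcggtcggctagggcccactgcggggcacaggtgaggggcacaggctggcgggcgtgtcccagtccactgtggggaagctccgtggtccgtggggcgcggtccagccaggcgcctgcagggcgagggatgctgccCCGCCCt
Anxa2: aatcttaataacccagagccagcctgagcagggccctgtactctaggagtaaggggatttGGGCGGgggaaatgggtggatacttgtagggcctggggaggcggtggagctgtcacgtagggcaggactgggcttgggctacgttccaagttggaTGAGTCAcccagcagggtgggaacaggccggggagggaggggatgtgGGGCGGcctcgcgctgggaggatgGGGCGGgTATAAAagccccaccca

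The TATA box letters occur in the windows of S100a4 and Anxa2, and also in those of Anxa1 and Vim. They occur in 12.4% of the 32851 windows of this length. The AP-1 letters, which occur in 6.75% of all windows, are found 2 times before S100a11 and 1 time before Anxa2. GC boxes, present in 32.7% of all windows, occur 3 times before S100a11, 3 times before Anxa2 and 1 time before Lgals3. The window of S100a6 holds none of the motifs. The 5 genes thus do not share any of these motifs, and a match describes letters only, not a bound site. Among the 10 genes, 8 had an entry, and S100a10 and Lgals1 had none.

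The libraries held between 1725 and 4237 cells, 11754 in all, with 106039690 unique molecular identifiers (UMIs, each standing for a captured RNA molecule) and a median of 7115 to 7669 UMIs per cell and library. A level is the sum of a gene's UMIs in all cells of 1 cluster and 1 library, scaled to 1000000 UMIs of the same cells (CPM). Intervals are 95% intervals, exact Poisson for CPM, and describe counting error alone, so the spread among mice is not in them. The cluster names follow the authors' labels. The cluster called cycling cells here is labelled by them as cycling exhausted cells, and it is kept apart from the other effector and exhausted clusters. The CD8 T cell markers Cd3e, Cd3g, Cd3d, Cd8a and Cd8b1 summed to between 3655 and 7685 CPM in the clusters, and none was at 0 in any of them. Macrophage markers (10 genes) summed to 11.9 to 102 CPM in 7 clusters and to 1591 CPM in GzmA+ Tex (1107 to 1800 CPM over the libraries). In that cluster 92.1% of cells held 2 or more UMIs of macrophage, neutrophil, B or plasma cell or erythroid markers, compared with 3.07% to 33.7% elsewhere. The barcodes of 112 cells were found in more than 1 library (56 barcodes). The clusters were made from these same counts, so that differences between clusters are given as descriptions without a test.

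All members except Anxa1, Vim and Ahnak were higher in each of the 5 effector (Teff) and exhausted (Tex) clusters than in naive cells (Tn) over all libraries. Together the 10 genes made up 3401 CPM in Tn and 3141 CPM in central memory cells (Tcm), compared with 8368 CPM in transitory Teff and 9526 CPM in cycling cells. The other 4 clusters lay between them, with 4972 CPM in GzmB+ Teff, 6284 CPM in TIGIT+ Teff, 6730 CPM in GzmA+ Tex and 6814 CPM in TIM-3+ Tex. The lowest library of transitory Teff (7878 CPM) was above the highest library of Tn (3622 CPM) and of Tcm (3260 CPM). After each cell was thinned at random to 2500 UMIs, the median cell carried 7 UMIs of the 10 genes in Tn and in Tcm, 18 in transitory Teff and 21 in cycling cells.

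**Figure D1:**
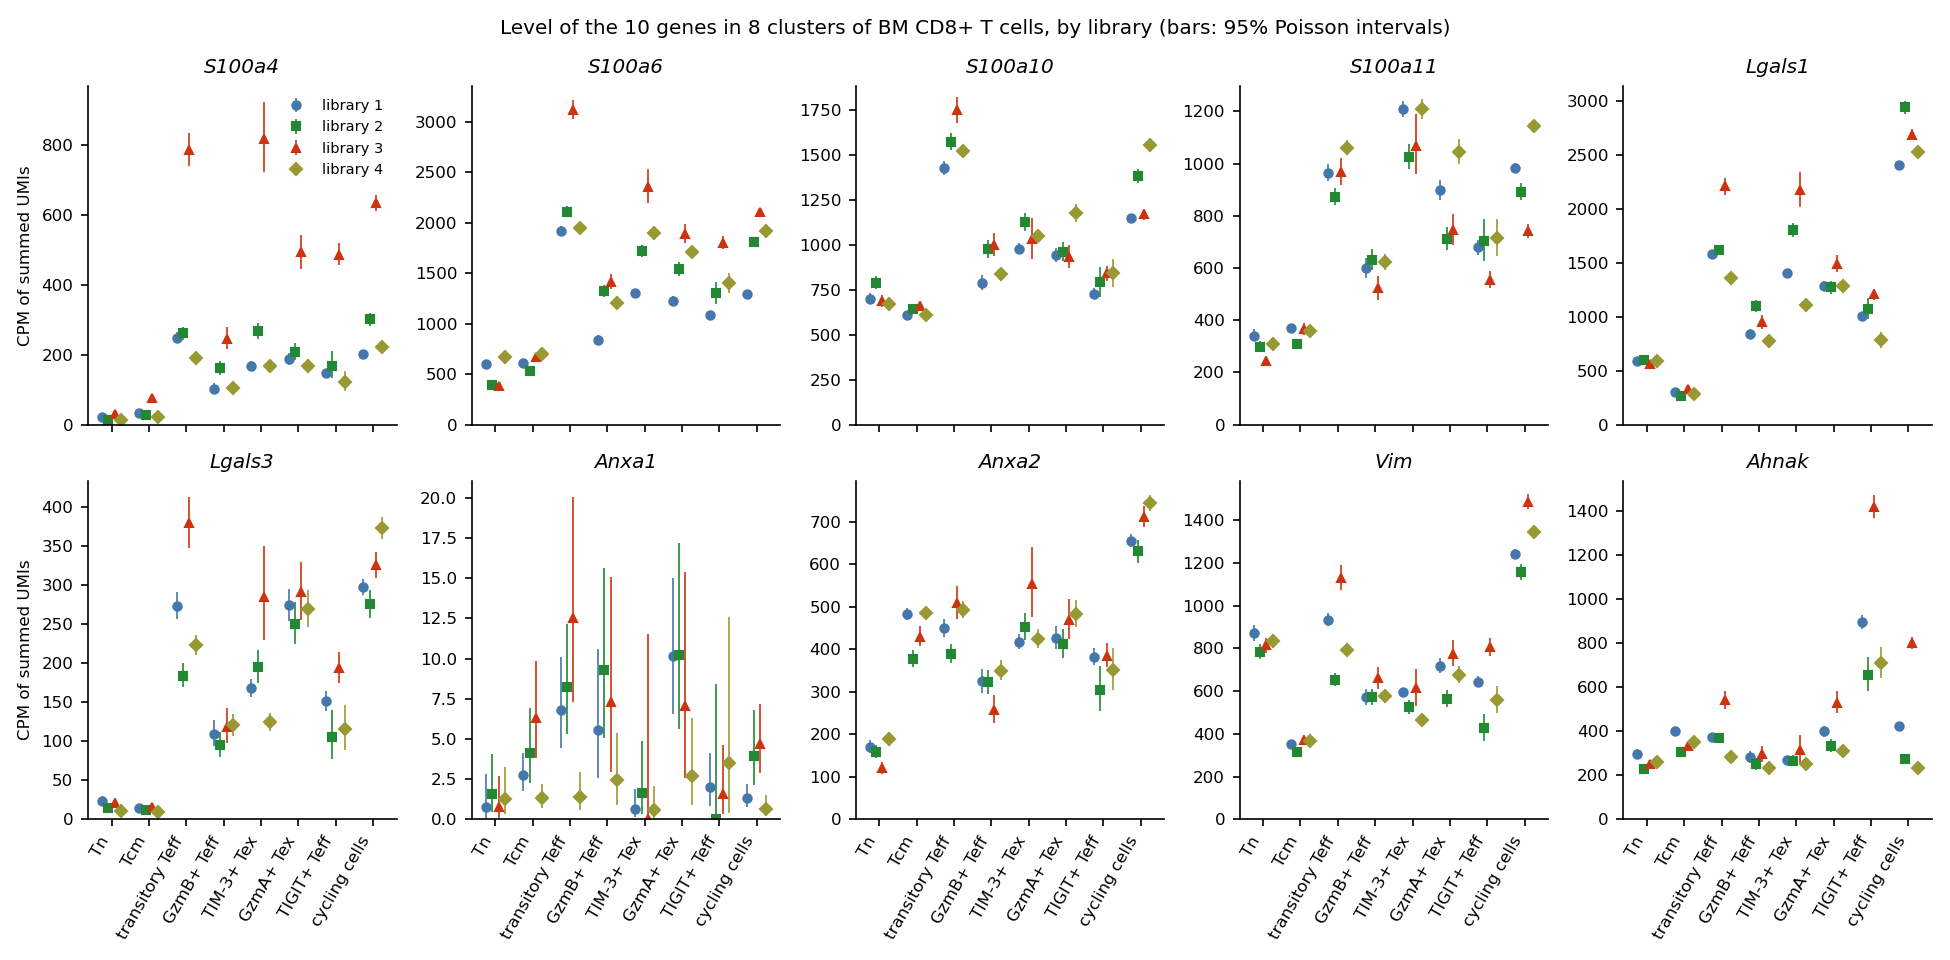
Level of each of the 10 genes (CPM of summed UMIs, linear axis from 0, scaled separately for each gene) in 8 clusters, with 1 point per library and 95% Poisson intervals of counting error as bars. S100a4 and Lgals3 are close to the bottom of the axis in Tn and Tcm, library 3 is the highest for S100a4 in each cluster, Ahnak is highest in TIGIT+ Teff, and Anxa1 stays at or under 12.5 CPM.

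S100a4, a regulator of cell motility, showed the widest span among the S100 genes. In Tn it had 23.5, 12.8, 31.6 and 12.05 CPM in libraries 1 to 4, and in Tcm 33.2, 26.4, 75.7 and 22.2 CPM. In transitory Teff the levels were 248.5, 262, 787 and 191 CPM. The ranges of Tn and transitory Teff did not overlap, and within each of the 4 libraries Tcm was above Tn. In GzmB+ Teff S100a4 had 102, 162, 246 and 106 CPM, in TIM-3+ Tex 169, 268, 819 and 167 CPM, and in GzmA+ Tex 187, 208, 493 and 169 CPM. TIGIT+ Teff had 147, 169, 487 and 122 CPM, and cycling cells 203, 302, 634 and 222 CPM. Over all cells of a cluster the order was cycling cells (293 CPM, 286 to 299), transitory Teff (286 CPM, 277 to 295), TIGIT+ Teff (247 CPM), GzmA+ Tex (226 CPM), TIM-3+ Tex (206 CPM), GzmB+ Teff (138 CPM), Tcm (32.7 CPM) and Tn (19.7 CPM). The first neighbours could not be ordered, since cycling cells were above transitory Teff in 2 of 4 libraries. TIGIT+ Teff was above GzmA+ Tex in 0 of 4 libraries although its pooled level was higher, and 271 of its 816 cells belong to library 3, compared with 83 of 571 in GzmA+ Tex. GzmA+ Tex and TIM-3+ Tex could not be ordered either.

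S100a6, another calcium sensor, had its highest level in transitory Teff in every library, with 1923, 2110.0, 3117 and 1948 CPM. Tn had 601, 388, 387 and 674 CPM and Tcm 609, 534, 674 and 702 CPM. Tn was the lowest cluster in all 4 libraries. TIM-3+ Tex (1308, 1719, 2359 and 1895 CPM) and cycling cells (1298, 1811, 2103 and 1923 CPM) could not be ordered. GzmA+ Tex ranged from 1229 to 1888 CPM, TIGIT+ Teff from 1083 to 1804 CPM and GzmB+ Teff from 841 to 1416 CPM.

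S100a11, which binds annexin A1, was the only S100 member with its highest level in TIM-3+ Tex, with 1209, 1025, 1069 and 1209 CPM. Transitory Teff had 965, 873, 969 and 1061 CPM and was below TIM-3+ Tex in all 4 libraries. Tn was lowest in each library (342, 299, 245 and 308 CPM), followed by Tcm (372, 310, 366 and 358 CPM). Transitory Teff and cycling cells (984, 892, 741 and 1144 CPM) could not be ordered. GzmA+ Tex ranged from 711 to 1046 CPM, TIGIT+ Teff from 555 to 714 CPM and GzmB+ Teff from 523 to 632 CPM. S100a10, the annexin A2 partner, had a narrower span, from 608 to 658 CPM in Tcm and 674 to 790 CPM in Tn up to 1425 to 1750 CPM in transitory Teff. Its lowest cluster was Tcm in all 4 libraries, and its highest was transitory Teff in 3 libraries and cycling cells in library 4 (1554 CPM). TIM-3+ Tex (979 to 1124 CPM), GzmA+ Tex (932 to 1176 CPM), GzmB+ Teff (791 to 998 CPM) and TIGIT+ Teff (729 to 842 CPM) lay between.

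Lgals1 encodes galectin-1, known for its immunoregulatory action on activated T cells. It was highest in cycling cells in every library, with 2406, 2944, 2690.1 and 2525 CPM. Transitory Teff followed with 1579, 1617, 2210 and 1363 CPM, and TIM-3+ Tex with 1403, 1804, 2178 and 1110 CPM. Tcm was lowest, with 301, 265, 327 and 285 CPM, and was below Tn (593, 604, 563 and 593 CPM) in all 4 libraries. Naive cells therefore carried more Lgals1 than Tcm cells, and the ranges of the libraries did not overlap. GzmA+ Tex had 1290.3, 1274, 1493 and 1284 CPM, TIGIT+ Teff 1006, 1074, 1208 and 784 CPM, and GzmB+ Teff 838, 1099, 952 and 776 CPM.

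Lgals3 encodes galectin-3, which can form lattices on glycoproteins of the cell surface. It was close to absent outside the Teff, Tex and cycling clusters, with 23.5, 14.4, 21.6 and 10.8 CPM in Tn and 14.4, 12.4, 15.9 and 8.96 CPM in Tcm. Cycling cells had 297, 275, 325 and 373 CPM and transitory Teff 274, 184, 379 and 223 CPM. Cycling cells were highest in 3 libraries and transitory Teff in library 3. The level in GzmA+ Tex, 250.02 to 291 CPM, was 273 CPM in the cells with 2 or more UMIs of other cell types and 214 CPM in the few without, and macrophages are known to express this gene. The part of such RNA in the level was not tested. TIM-3+ Tex ranged from 124 to 284 CPM, TIGIT+ Teff from 105 to 194 CPM and GzmB+ Teff from 94.99 to 120.3 CPM.

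Anxa2 encodes the annexin that pairs with S100a10. Both genes were higher in transitory Teff and in cycling cells than in Tn in every library, but Anxa2 did not follow its partner in Tcm. The Anxa2 level in Tcm, 482, 378, 430 and 484 CPM, was above Tn (171, 159, 120.3 and 188 CPM) in every library. It could not be ordered against transitory Teff (449, 390, 508 and 493 CPM). S100a10 in contrast was lower in Tcm than in Tn in every library. Anxa2 was highest in cycling cells, with 655, 630 and 711 CPM in libraries 1 to 3 and 744 CPM in library 4. TIM-3+ Tex had 418 to 553 CPM, GzmA+ Tex 412 to 484 CPM, TIGIT+ Teff 303 to 385 CPM and GzmB+ Teff 257 to 350 CPM. Anxa1, whose protein is an anti-inflammatory mediator, was near the limit of the data, with 317 UMIs in all cells and 0.781 to 7.67 CPM in the clusters. It had no UMI in TIM-3+ Tex of library 3, which allows up to 9.37 CPM, nor in TIGIT+ Teff of library 2, which allows up to 6.84 CPM. Over all libraries the interval of GzmA+ Tex (5.69 to 10.1 CPM) lay above that of Tn (0.569 to 1.92 CPM). In GzmA+ Tex, Anxa1 had 7.91 CPM in cells with 2 or more UMIs of other cell types. In the few cells without, it had 3.10 CPM (0 to 9.43 CPM over the libraries). The part of RNA from other cells in this level was not tested. Between neighbours in the order the intervals were apart in 0 of 4 libraries.

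Vim encodes vimentin, the filament protein of mesenchymal and lymphoid cells. Vim was high in Tn, with 871, 784, 814 and 835 CPM, and low in Tcm, with 351, 317, 372 and 365 CPM. Lgals1, S100a10 and Lgals3 were likewise higher in Tn than in Tcm in every library. Unlike these genes, Vim was also higher in Tn (826 CPM over all libraries) than in GzmA+ Tex (682 CPM), in every library. Cycling cells were highest in each library, with 1242, 1157, 1487 and 1344 CPM. Transitory Teff (934, 653, 1130.4 and 792 CPM) could not be ordered against Tn. TIM-3+ Tex had 594, 524, 612 and 465 CPM, GzmB+ Teff 571 to 660 CPM, GzmA+ Tex 564 to 776 CPM and TIGIT+ Teff 426 to 806 CPM.

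Ahnak encodes the scaffold protein AHNAK, which takes part in calcium entry of T cells. It was highest in TIGIT+ Teff in every library, with 894, 657, 1420 and 709 CPM. The other clusters reached 800.3 CPM at most, in cycling cells of library 3, where the other 3 libraries had 426, 276 and 233 CPM. Tn had 297, 227, 249.8 and 261 CPM, GzmB+ Teff 282, 250.4, 295 and 232 CPM, and TIM-3+ Tex 271, 267, 316 and 251 CPM. These last 3 clusters could not be ordered. Tcm ranged from 308 to 404 CPM, GzmA+ Tex from 311 to 530 CPM and transitory Teff from 282 to 542 CPM.

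To summarize the change from naive cells, the 5 Teff and Tex clusters were summed in each library and divided by Tn. Ratios carry 10 CPM added to both sides, which understates the change of low genes, and a gene was called where it was at least 2-fold higher in every library. Of the 10 members, 9 had the 10 CPM over all cells that were required, and Anxa1 did not. Called were S100a4, S100a6, S100a11, Lgals3 and Anxa2, 5 of 9 members, where 2.51% of the 7604 genes were called. The members were chosen as genes of activated T cells with earlier results of these data known, so this excess is a description only. S100a4 was 8.05-fold higher over all libraries and between 5.63-fold and 13.2-fold in a library, and Lgals3 was 7.52-fold higher (6.25-fold to 9.15-fold). S100a6 was 3.11-fold higher (2.21-fold to 5.35-fold), S100a11 2.96-fold (2.66-fold to 3.18-fold) and Anxa2 2.499-fold (2.28-fold to 3.28-fold). Lgals1 was 2.20-fold higher and missed the call in library 4 (1.93-fold). S100a10 was 1.57-fold higher (1.42-fold to 1.76-fold) and Ahnak 1.60-fold, with 1.10-fold in library 4 and 3.09-fold in library 3. TIGIT+ Teff, where Ahnak was highest, gave 59 cells to the sum in library 4 and 271 in library 3. The part of this mix of clusters in the Ahnak ratios was not tested. Vim was below Tn in libraries 1, 2 and 4 and not in library 3 (1.04-fold), and no member was at least 2-fold lower in every library, where 0.21% of genes were. The median log2 ratio was 1.23 over the 10 genes and 0.22 over all genes tested. Where ribosomal, mitochondrial, immunoglobulin and TCR variable genes were left out of the total, the median of all genes moved to 0.00. S100a6 and Anxa2 then lost the call, with log2 ratios of 1.34 and 1.05 over all libraries, and 2.04% of genes were called.

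**Figure D2:**
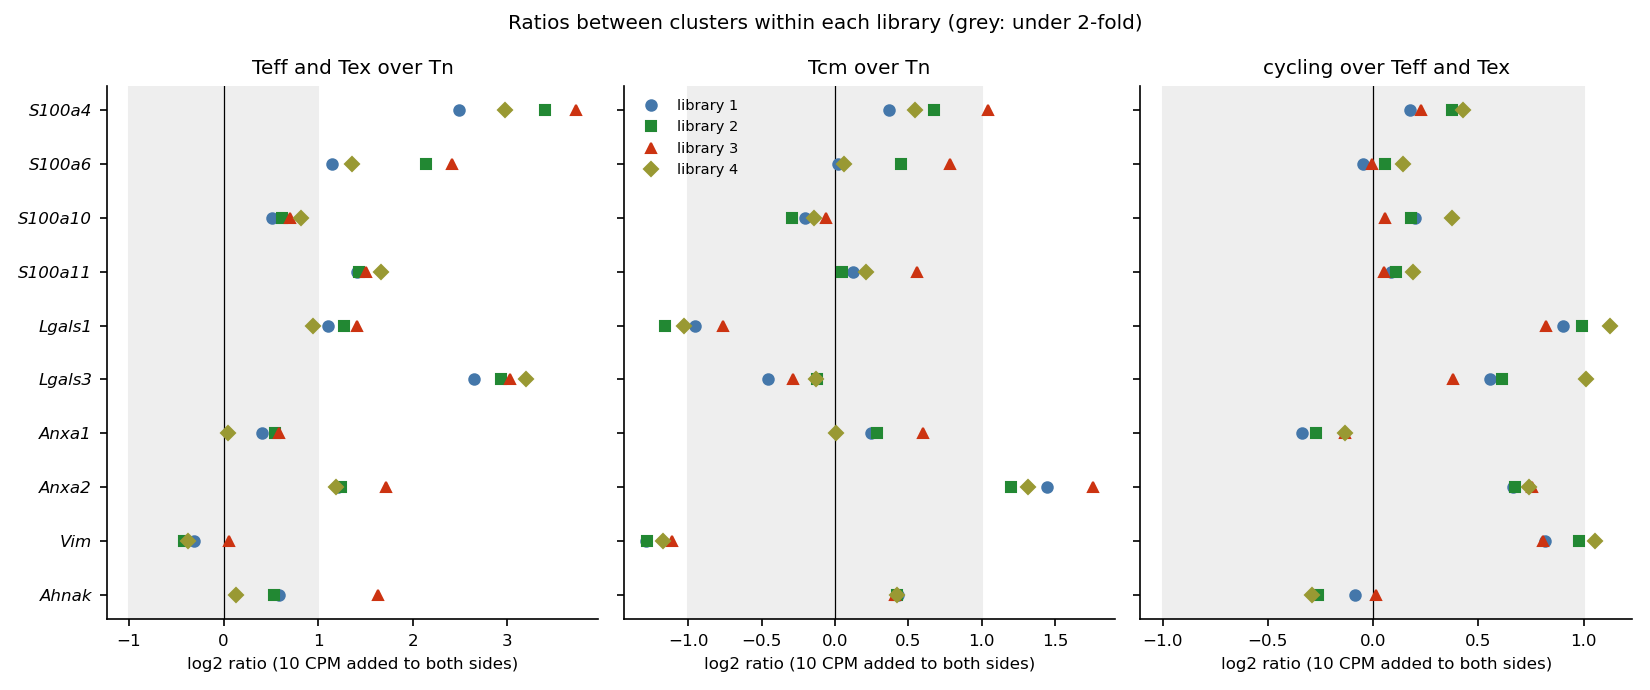
Ratios of clusters for each gene within each library (1 point per library, log2 scale with 10 CPM added to both sides, grey where under 2-fold) for the 5 Teff and Tex clusters over Tn, Tcm over Tn, and cycling cells over the 5 Teff and Tex clusters. S100a4 and Lgals3 lie farthest to the right in the first panel, Anxa2 is the only gene to the right of the grey band in all libraries in the middle panel and Vim the only one to its left, and Lgals1 and Vim lie near the edge of the band in the last.

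Taken by cluster over Tn, the call held for 6 members in transitory Teff (the same 5 and Lgals1), where 1.47% of genes were called. In GzmB+ Teff it held for 2 members, S100a4 and Lgals3, at a background of 2.14%. In TIM-3+ Tex the 5 members were called (3% of genes), and in GzmA+ Tex 6 with Lgals1 (2.16% of genes). In TIGIT+ Teff, S100a4, Lgals3 and Ahnak were called, at a background of 5.54%. Cycling cells had 6 called members, again with Lgals1, at 5.93%. Compared with Tcm in place of Tn, transitory Teff had 7 called members, S100a4, S100a6, S100a10, S100a11, Lgals1, Lgals3 and Vim, where 0.999% of genes were called. Among the 3 clusters with 6 members called over Tn, transitory Teff had the lowest background. In these comparisons S100a10 and Vim passed only against Tcm.

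The memory cluster Tcm differed from Tn in a way of its own. Anxa2 was the only member at least 2-fold higher in every library, 2.77-fold over all libraries and 2.29-fold to 3.38-fold in a library (0.894% of genes called). Vim was the only one at least 2-fold lower in every library, at 0.436 of the Tn level (0.171% of genes). Lgals1 was lower at 0.506 of the Tn level, with 0.448 to 0.589 in a library. S100a4 was 1.44-fold higher in Tcm, S100a6 1.24-fold, S100a11 1.19-fold and Ahnak 1.38-fold, all of them in every library. Over all libraries 6 of the 10 genes were higher in Tcm than in Tn, as were 70.7% of the genes tested. Being higher by such amounts therefore does not set the members apart. The call for Anxa2 was lost when cells were assigned by the deposited Leiden cluster number in place of the cluster name.

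In cycling cells compared with the 5 Teff and Tex clusters, no member was called, where 3.12% of genes were at least 2-fold higher in every library. By any amount, 7 of 9 members were higher in all 4 libraries, S100a4, S100a10, S100a11, Lgals1, Lgals3, Anxa2 and Vim, and 35.6% of all genes were. Lgals1 was 1.94-fold higher (1.77-fold to 2.18-fold), Vim 1.91-fold (1.75-fold to 2.08-fold), Anxa2 1.63-fold and Lgals3 1.62-fold (1.30-fold to 2.01-fold). The S100 genes differed by less, with S100a4 at 1.26-fold, S100a10 at 1.16-fold and S100a11 at 1.08-fold.

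TIGIT+ Teff stood apart from the other 4 Teff and Tex clusters. Ahnak was at least 2-fold higher there in every library (0.487% of genes), with a log2 ratio of 1.66 over all libraries. The other 8 tested members were lower within every library by some amount, where 14.3% of genes were, and S100a10 had the lowest ratio over all libraries, with 777 CPM compared with 1179 CPM. Over all cells S100a4 was nevertheless higher in TIGIT+ Teff, 247 CPM compared with 226 CPM, and library 3, with the highest S100a4, gave 271 of its 816 cells. Ahnak spans 87.6 kb. The 983 tested genes with a span at least as long had a median log2 ratio of 0.70 in TIGIT+ Teff, and the 6615 shorter ones a median of 0.16. Of the long genes, only Ahnak itself reached its own ratio (1 of 983). The median mitochondrial share of a cell was 2.87% in TIGIT+ Teff and between 1.62% and 2.22% in the other clusters. The part of gene length or of the RNA composition of these cells in the Ahnak level was not tested. Compared with transitory Teff, 4 members were lower in TIM-3+ Tex in every library, S100a6, S100a10, Vim and Ahnak, where 12.9% of genes were. S100a11 was higher in TIM-3+ Tex in every library. Over all libraries it was the only 1 of the 10 genes that was higher there, and 60.5% of the genes tested were.

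S100a4 was set apart by 1 library. Library 3 was the highest in all 8 clusters, from 1.83-fold to 4.62-fold above the median of the other libraries, with a median of 2.66-fold over the clusters. S100a4 was the only member highest in library 3 in every cluster, which held for 0.487% of genes. For libraries 1, 2 and 4 no member was highest in every cluster, and 0.302%, 0.158% and 0.145% of genes were. Of the 37 genes highest in library 3 throughout, S100a4 had the sixth largest median ratio, after Trbv26, Igkv8-27 and the histone genes Hist1h3c, Hist1h3e and Hist1h4d. These genes were named after their values were seen. S100a6 was highest in library 3 in 6 clusters and lowest there in Tn. Vim was highest in library 3 in 7 clusters and Ahnak in 6, and S100a11 in none. Which treatment library 3 received cannot be told from the labels. Without library 3, the same 5 members were called in the Teff and Tex clusters over Tn, where 2.68% of genes were.

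The share of cells with at least 1 UMI was compared in cells thinned to 2500 UMIs. S100a4 was detected in 4.47% of Tn cells (Clopper-Pearson interval 3.43% to 5.72%), in 6.00% of Tcm cells (5.22% to 6.85%) and in 39.4% of transitory Teff cells (37.2% to 41.6%). Over the libraries its share in transitory Teff ran from 33.1% to 65.7%, above the highest share in Tn (7.54%) and in Tcm (11.5%). Lgals3 was detected in 3.43% of Tn, 2.49% of Tcm, 32.3% of transitory Teff and 40.2% of cycling cells. S100a10 was found in most cells of each cluster, from a median of 69.0% of cells in TIGIT+ Teff to 93.6% in transitory Teff. Anxa2 had a median share of 25.9% in Tn and 64.9% in Tcm, and Vim of 72.2% in Tn and 43.9% in Tcm. Free RNA from other cells can give UMIs in cells that do not express a gene. S100a8 and S100a9, which neutrophils express strongly and T cells should lack, were detected in 0.373% and 0.447% of thinned Tn cells and in 0.740% and 0.582% of thinned transitory Teff cells, all thinned to the same depth. The share of S100a4 in Tn was above this. That of Anxa1 in Tn, a median of 0.26% over the libraries, was not above it, and in transitory Teff it was 1.43%. Over all cells, however, S100a4 had 176 CPM, compared with 4.36 CPM for S100a8 and 3.61 CPM for S100a9. The amount of free RNA can differ between genes, so the comparison cannot tell expression of S100a4 in Tn from free RNA. Unthinned, S100a4 was detected in 11.2% of Tn and 53.6% of transitory Teff cells.

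Within single cells of the same cluster and library, the members varied together to different degrees. Over the 31 pairs of cluster and library with at least 50 cells, thinned to 2500 UMIs, the highest median Spearman's rho was 0.37 for S100a6 with Lgals1 (0.09 to 0.61). Lgals1 with Vim had 0.33 (0.06 to 0.54) and S100a4 with S100a6 had 0.31 (0.04 to 0.53). For S100a4 with S100a6 the median was 0.06 in Tn, 0.13 in Tcm, 0.39 in transitory Teff and 0.41 in GzmB+ Teff. Ahnak and Anxa2 meet in 1 protein complex with S100a10. The medians were 0.05 for Anxa2 with Ahnak, 0.13 for S100a10 with Anxa2 and 0.06 for S100a10 with Ahnak. By cluster, the median of S100a10 with Anxa2 ran from 0.04 in Tcm to 0.31 in cycling cells (0.29 to 0.35 over the libraries). These correlations are across cells of 1 library, which share their free RNA and their depth, and a weak value in such sparse counts is no finding.

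**Figure D3:**
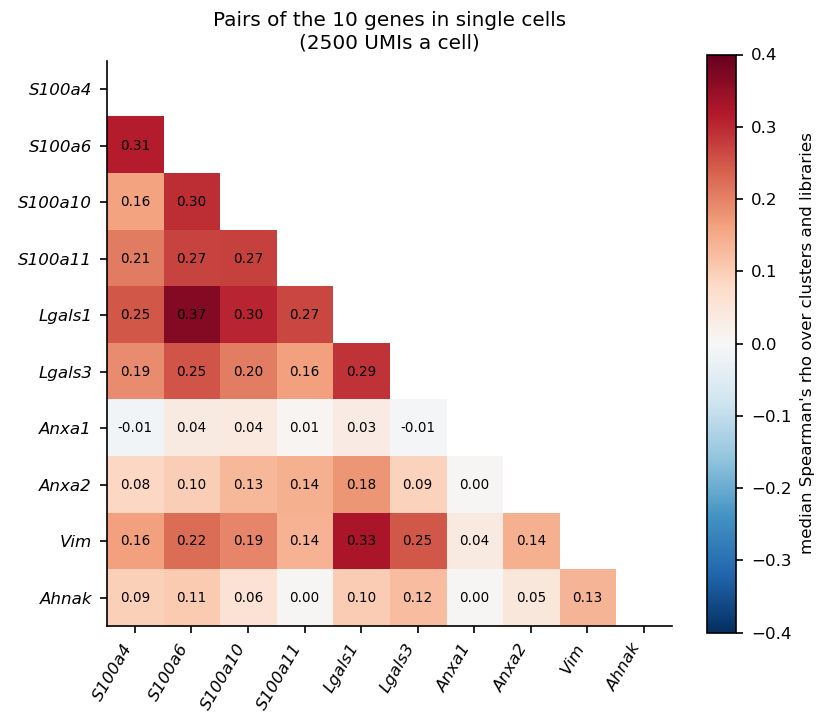
Median Spearman's rho of each pair of the 10 genes over clusters and libraries, in single cells thinned to 2500 UMIs (color scale from -0.4 to 0.4). S100a6 with Lgals1 is the highest pair at 0.37, and the pairs of Anxa1 stay near 0.

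TCR sequences allowed cells of the same cluster to be split by clone, so that members were compared between expanded clones (2 or more cells of a clonotype in a library) and clones seen in a single cell. A library entered where both classes had 20 cells. In Tcm, libraries 1 and 4 could be used, and no member was at least 2-fold higher in both, as for 0% of genes. S100a4 in Tcm had 34.9 CPM in expanded and 25.7 CPM in single clones of library 1, and 21.3 and 19.4 CPM in library 4. In transitory Teff no member was called either, where 0.0395% of genes were. S100a4 and S100a11 were higher in expanded clones of all 4 libraries by any amount (10.8% of genes). S100a4 had 326 CPM in expanded and 157 CPM in single clones of library 1, 290.1 and 241 CPM in library 2, 1058 and 440 CPM in library 3, and 249.8 and 118 CPM in library 4. The ratio was 2.01-fold, 1.20-fold, 2.37-fold and 2.03-fold, so that library 2 alone kept it from the call. The largest clones held 51 of the 309 expanded cells of library 1, 64 of 264 in library 2, 24 of 113 in library 3 and 67 of 390 in library 4. With each clone given the weight of 1 cell, S100a4 was no longer higher in every library, with 0.912-fold in the lowest library and a median of 1.68-fold.

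The differences were wider in GzmB+ Teff and GzmA+ Tex. In GzmB+ Teff, S100a6 and S100a11 were at least 2-fold higher in expanded clones of all 4 libraries, where 0.5% of genes were, and 8 of 9 members were higher by any amount (18.2% of genes), Vim being the exception. S100a6 had 1505 CPM in expanded and 536 CPM in single clones of library 1, 1877 and 895 CPM in library 2, 3014 and 681 CPM in library 3, and 1681 and 787 CPM in library 4. S100a11 was 2.49-fold, 2.19-fold, 3.41-fold and 3.05-fold higher. S100a4 was 7.90-fold, 1.91-fold, 4.86-fold and 4.82-fold higher and missed the call in library 2. In GzmA+ Tex, for which libraries 1, 2 and 4 could be used, S100a4, S100a11 and Lgals1 were called (0.579% of genes), and all 9 tested members were higher in all 3 libraries (21.3% of genes). S100a4 there had 360 CPM in expanded and 49.1 CPM in single clones of library 1, 495 and 48.9 CPM in library 2, and 209 and 45.6 CPM in library 4. In TIGIT+ Teff 9 members were higher in both usable libraries (34.3% of genes), and in cycling cells S100a4, S100a11, Lgals1 and Anxa2 were higher in all 4 (16% of genes). TIM-3+ Tex had between 5 and 14 single cells in a library and was not compared.

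**Figure D4:**
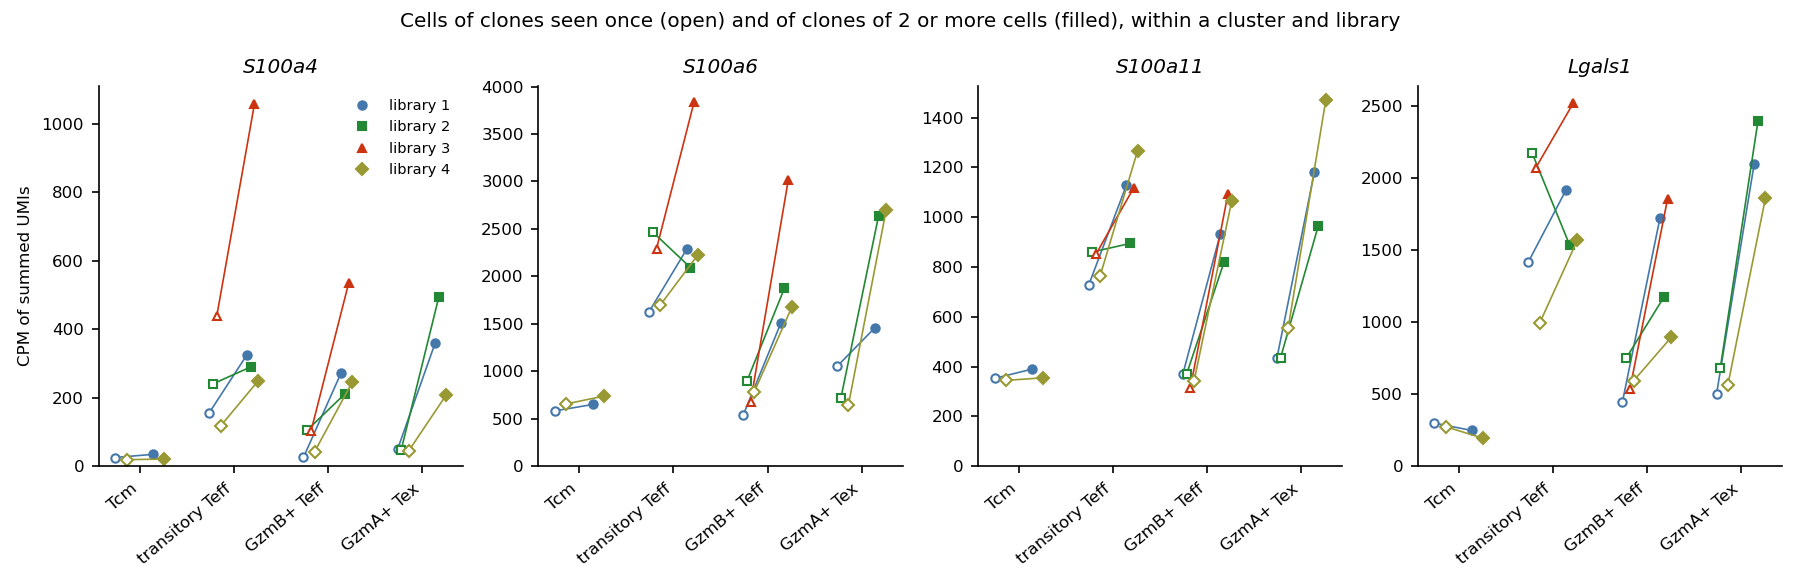
S100a4, S100a6, S100a11 and Lgals1 (CPM of summed UMIs, linear axis from 0) in cells of clones seen once (open symbols) and of expanded clones (filled), joined for each library, in the 4 clusters described. In GzmB+ Teff and GzmA+ Tex every line ascends for these 4 genes, whereas in Tcm Lgals1 descends in both libraries and in transitory Teff library 2 descends for S100a6 and Lgals1.

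Markers of naive and exhausted cells moved with the same split outside Tcm. In transitory Teff 5 naive markers (Ccr7, Lef1, Tcf7, Il7r and Dapl1) summed to 491 to 610.5 CPM in single and 133 to 302 CPM in expanded clones over the libraries, and the exhaustion markers (Pdcd1, Tox, Havcr2, Lag3 and Tigit) to 484 to 844 CPM and 1275 to 1776 CPM. In GzmB+ Teff the naive markers summed to 535 to 732 CPM in single and 82.1 to 207 CPM in expanded clones, and the exhaustion markers to 161 to 248 CPM and 1285 to 2005 CPM. The single clones of GzmB+ Teff thus carried more of the naive markers and less of the exhaustion markers than its expanded clones. In GzmA+ Tex the naive markers summed to 309 to 406 CPM in single and 19.3 to 131 CPM in expanded clones, and the exhaustion markers to 387 to 804 CPM and 1730.4 to 2116 CPM. Macrophage markers there had 1610.5 to 2328 CPM and 2157 to 2374 CPM. The naive markers were also higher in single clones of TIGIT+ Teff (353 to 584 CPM, compared with 143 to 173 CPM) and of cycling cells (336 to 572 CPM, compared with 78.0 to 138 CPM). The exhaustion markers were higher in expanded clones of both clusters, with 1784 to 2540.2 CPM compared with 860.4 to 973 CPM in TIGIT+ Teff and 978 to 1527 CPM compared with 339 to 614 CPM in cycling cells. In Tcm the naive markers differed by less, with 304 to 323 CPM in single and 277 to 282 CPM in expanded clones, and the ranges of the exhaustion markers overlapped. The part of these marker differences in the clone differences was not tested. The largest clone made up 3 to 8 of the 22 to 59 expanded cells per library of GzmB+ Teff. Median UMIs per cell were 4566 to 5121 in expanded and 7453 to 8667 in single clones of that cluster. The calls in both clusters depended on the processing. In GzmA+ Tex, S100a11 lost the call without ribosomal, mitochondrial, immunoglobulin and TCR variable genes in the total. S100a4 and Lgals1 were left, where 0.434% of genes were called. Without library 1, 5 members were called there, where 1.55% of genes were, and without library 2, 4 members at 1.54%. The 3 members were still called without library 4, at a background of 1.35%, and after thinning to 2500 UMIs, at 1.32%. They were also called with each clone given the weight of 1 cell, at 0.46%. In GzmB+ Teff the members called were not the same under each setting. After thinning to 2500 UMIs, S100a4 and Lgals3 were called in place of S100a6 and S100a11, where 0.473% of genes were. With each clone given the weight of 1 cell, S100a11 and Lgals3 were called, where 0.329% of genes were. S100a6 then lost the call, with 1.84-fold in its lowest library. Without cells carrying UMIs of other cell types S100a11 alone was called, where 0.71% of genes were. Without library 2 there were 4 called members, at a background of 0.907%. By Leiden cluster number no member was called, at 0.447%. Nor was any called without ribosomal, mitochondrial, immunoglobulin and TCR variable genes in the total, at 0.473%.

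The other genes of the families were read against the same comparison. Of 31 other S100, galectin and annexin genes listed, 26 were in the table and 9 were tested. None was called for the Teff and Tex clusters over Tn (2.51% of all genes), for Tcm over Tn (0.894%) or for cycling cells over the Teff and Tex clusters (3.12%). With shares this low, having no call does not set a list of 9 genes apart from other genes. All 9 were higher in the Teff and Tex clusters than in Tn in every library by some amount, as were 8 of 9 tested members and 56.2% of all genes, with a median log2 ratio of 0.53 for the 9 compared with 0.22 for all genes. S100a13 had 199.98 CPM in Tn and 336 CPM in transitory Teff, Anxa6 304 and 426 CPM, and Anxa5, which binds phosphatidylserine, 49.9 and 83.9 CPM. Lgals9 and Lgals3bp differed in their pattern, with 337 and 291 CPM in GzmB+ Teff, a cluster whose interferon markers Ifit1, Ifit3 and Isg15 summed to 1852 CPM, and at most 179 and 185 CPM in the other clusters. Of 25 genes listed for the cytoskeleton, adhesion and membrane, 23 were tested. None was called for the Teff and Tex clusters over Tn, where 2.51% of all genes were, which does not set them apart either. Their median log2 ratio was 0.33. Itgb1, the β1 integrin chain, had 134 CPM in Tn and 562 CPM in TIGIT+ Teff. Emp3 was, like Vim, lower in Tcm (164 CPM) than in Tn (308 CPM), and Tagln2 was lower in TIM-3+ Tex (186 CPM) than in Tn (515 CPM).

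The profile of each member over the 32 values of cluster and library was compared with that of all genes of at least 50 CPM, by Pearson's r of log2 levels. The values share cells, libraries and depth, and r is given as a description. For S100a4 the closest genes were S100a6 (0.92), Lgals3 (0.91) and Glrx (0.88). S100a6 was closest to Lsp1 (0.93), S100a4 and Lgals3 (0.90), and S100a10 to Lsp1 (0.93), Pycard (0.93) and Abracl (0.89). S100a11 was closest to Tigit (0.95), Abracl (0.95) and Litaf (0.94). Lgals1 followed Lgals3 (0.92), Lsp1 (0.90) and Pycard (0.88), and Lgals3 followed Gzmk (0.93), Lgals1 and Cd48 (0.91). Anxa2 was closest to Capzb (0.92), Pfn1 (0.88) and Cdc42 (0.86), Vim to Emp3 (0.88), Cdc25b (0.82) and Itgb7 (0.81), and Ahnak to Ccdc88c (0.96), Tbl1xr1 (0.95) and Ankrd44 (0.95). For Anxa1 no gene exceeded 0.63.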

How the data were processed

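Reads were processed by the authors with Cell Ranger 7.00 on mm10 (per the submitters' processing notes), and read depth was evened out between libraries. Their cell filter required between 2500 and 25000 UMIs, a mitochondrial percentage below 15, and Cd3e/g and Cd8a transcripts. The deposited matrix holds these UMI counts unnormalized. The mitochondrial value of each cell was deposited as a fraction. Cluster names, some of them reworded here, and Leiden numbers (Monocle3) are the authors' own, and 837 cells had a Leiden number of another name. TCR chains were paired by the authors with scRepertoire. Removal of doublets is not given in the sources used here, and none was done.

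Symbols were taken from GENCODE M21. UMIs were summed per cluster and library, and ratios carried a pseudocount of 10 CPM. A gene was tested at 10 CPM or more over all cells and called at a 2-fold difference in every library, with no p-value. Intervals were exact Poisson for CPM and Clopper-Pearson for shares, at 95%. Cells were thinned to 2500 UMIs with seed 7. The members, gene lists and comparisons were chosen with earlier results of these data known. The comparisons of separate Teff and Tex clusters, the clones of GzmB+ Teff, GzmA+ Tex, TIGIT+ Teff and cycling cells, and the reading of library 3 were added after values were seen. Full values are given for the member of each role with the highest level and for members with another highest cluster, others mostly by range, with the 3 genes of most alike profile each. Cells were also described by marker lists, of which those that bear on a result are given, and 1 naive marker is not reported here. No treatment was compared, since no library number is tied to one. Alternatives changed depth, weight, labels, pseudocount, denominator, cells of other types, doublets, clonotypes and libraries. Calculations, tested on simulated data, ran in Python 3.11.15 (numpy 2.4.6; scipy 1.17.1), and plots were drawn in matplotlib 3.10.9.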

Additional observations from a re-analysis of the deposited data

How the results depend on the processing

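Without ribosomal, mitochondrial, immunoglobulin and TCR variable genes in the total, 3 members were called in the Teff and Tex clusters over Tn. These were S100a4, S100a11 and Lgals3, where 2.04% of genes were called. Under the other settings 4 to 6 members were called. With a pseudocount of 1 CPM the 5 members named above stayed, where 4.71% of genes were called. Anxa2 lost the call by Leiden number (2.14% of genes called) and S100a6 with each clonotype given the weight of 1 cell (2.17%). Lgals1 joined the 5 members after thinning (2.46%) and without library 4 (2.89%). For Tcm over Tn, 0 members were called by Leiden number in place of Anxa2, where 0.802% of genes were. In expanded over single clones of transitory Teff, leaving out 1 library in turn gave 0 to 1 called members, S100a4 being called without library 2. Between 0.0526% and 0.0658% of genes were called in these settings. Clones of more than 5 cells could not be compared in Tcm, nor GzmA+ Tex without cells carrying UMIs of other cell types, for lack of cells. With genes of at least 50 CPM as background, 3.44% were called in the Teff and Tex clusters over Tn, and 1.12% of all genes with a UMI. Of 390 log2 ratios recomputed, 252 moved by less than their counting interval and 138 by more, and none at least 2-fold changed direction. Depth limits Anxa1, and 31 cells limit TIM-3+ Tex of library 3. No paired analysis was possible because each treatment is 1 library, with no replicate numbers in the labels. Ratios between clusters were taken within each library and carry no test.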
